A study of Mus musculus with 64 samples.

Results

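ACY957, an inhibitor of class I histone deacetylases, was compared with its vehicle in mice labelled as Clock mutants. The tissue was the ventral tegmental area (VTA), the midbrain region that holds the mesolimbic dopamine neurons. The members were chosen by the treatment and genotype labels alone: 8 ACY957 libraries and 11 vehicle libraries, 19 of the 64 libraries in the series. All came from adult male mice of the strain given as 129S1/Svlm and the genotype given as Clock delta 19 mutant, so both groups carry the allele, and each library is 1 mouse. Treatment lasted 14 days, and tissue was taken as 1 mm bilateral punches at zeitgeber time (ZT) 6, which is 6 h after lights on, about 24 h after the last treatment. The dose and the make-up of the vehicle are not given in the sources used here. The libraries with wildtype labels (8 ACY957, 5 vehicle) and the mutant-label valproate (VPA) libraries (8 VPA, 13 VPA vehicle) served for the tests of differences between drug effects.

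The Clock delta 19 allele makes a CLOCK protein that lacks the part encoded by an exon but still pairs with BMAL1, and it acts as a dominant negative on the transcription that the pair drives from E-box elements. Mice with this allele are used as a model of mania-like behaviour, and the VTA has been studied as a site of that phenotype. Class I histone deacetylases (HDAC1, HDAC2, HDAC3 and HDAC8) remove acetyl groups from histone tails, and HDAC1 to HDAC3 work inside the SIN3, NuRD, CoREST and NCoR corepressor complexes.

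Depth ran from 20.1 M to 31.7 M counted reads per library, with a median of 25.6 M, and levels are given as CPM, the reads of a gene per 1 M reads of the library after scaling. Th, the gene of tyrosine hydroxylase, which dopamine neurons need to make their transmitter and which marks the dissected region, lay between 669.9 and 1603.5 CPM in all 19 libraries. The mean log2 CPM of 8 genes driven by the clock (Dbp, Tef, Per2, Per3, Nr1d1, Nr1d2, Ciart and Bhlhe41) split the libraries of the series at a wide gap, with a lower set up to 4.33 and an upper set from 4.91, in which most wildtype-label libraries lay. ACY957 replicates 1 and 3 (4.96 and 4.91) and vehicle replicates 6, 7 and 8 (5.30, 5.32 and 5.37) lay in the upper set, which goes against their mutant label. The counts are per gene, so they cannot show the exon that the allele lacks, and the labels were kept as given. Replicate numbers follow the accession order and pair no mice. The design text states 8 mice per group, whereas the labels put 11 in this vehicle group.

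A single gene passed the test. Nmu, which encodes the neuropeptide neuromedin U, rose in ACY957 libraries to 8.41 ± 3.24 CPM (SD, n = 8), against 1.15 ± 1.63 CPM (SD, n = 11) in vehicle libraries. This was 1 of 15634 genes tested, or 0.0064% (edgeR quasi-likelihood test, Benjamini-Hochberg adjusted p under 0.05). No gene passed in the lower direction, and no gene of the 15634 had all 8 ACY957 libraries above the highest vehicle library or all 8 below the lowest. At an unadjusted p under 0.05 stood 987 genes (6.31%), 465 of them higher (2.97%) and 522 lower (3.34%) with ACY957. The median log2 fold change over all tested genes was 0.006, and 52.6% of them lay above 0.

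Neuromedin U is a peptide of the hypothalamus, gut and other tissues that acts through the receptors NMUR1, found mostly outside the brain, and NMUR2, found mostly in the brain. It is known for reducing food intake and for effects on activity, stress hormones and circadian timing. The gene Nmu lies on the minus strand of chromosome 5 at 76333495 to 76363788 (GENCODE M21, mm10), with 28.7 kb between its end and the start of Clock. The gene of its brain receptor, Nmur2, lies on chromosome 11 at 56024987 to 56041010, also on the minus strand. The 300 bases around the annotated start of both genes, 250 before it and 50 after (RefSeq, GRCm38.p6), are shown because Nmu was the gene that passed and Nmur2 had the next smallest p over all genes. Capitals mark matches to the E-box CACGTG and the GC box GGGCGG, both searched on either strand.
Nmu promoter, chr5:76363728-76364027, minus strand: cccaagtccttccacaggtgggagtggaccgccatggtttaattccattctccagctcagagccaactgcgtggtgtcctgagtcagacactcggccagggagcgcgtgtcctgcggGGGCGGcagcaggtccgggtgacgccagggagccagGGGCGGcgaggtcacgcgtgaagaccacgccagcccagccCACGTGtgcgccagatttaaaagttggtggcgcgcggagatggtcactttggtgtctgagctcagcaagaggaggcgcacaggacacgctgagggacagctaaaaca
Nmur2 promoter, chr11:56040938-56041237, minus strand: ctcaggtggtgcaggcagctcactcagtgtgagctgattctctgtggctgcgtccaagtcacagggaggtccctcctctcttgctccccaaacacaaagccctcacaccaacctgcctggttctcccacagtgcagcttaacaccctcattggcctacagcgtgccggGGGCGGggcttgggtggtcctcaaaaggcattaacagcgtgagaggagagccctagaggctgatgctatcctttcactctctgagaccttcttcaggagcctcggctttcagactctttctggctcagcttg
The Nmu window held GC boxes that begin at -133 and -97 and an E-box that begins at -57, counted from the annotated start. The Nmur2 window held a GC box at -82 and no E-box. Of 32851 promoters of the same length, 35.7% held a GC box and 7.15% this E-box. Neither window held the cyclic AMP response element TGACGTCA, which 1.79% of the promoters held. A match is a description of the letters, not of a bound factor.

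In the order of their replicate numbers, Nmu was at 11.8, 8.23, 1.92, 8.37, 8.12, 12.2, 6.74 and 9.79 CPM in ACY957 libraries. The 11 vehicle libraries ran from 0.390 CPM through a median of 0.597 CPM to 6.01 CPM. The groups overlapped only through ACY957 replicate 3, at 1.92 CPM, and vehicle replicate 2, at 6.01 CPM: the next highest vehicle library was replicate 4, at 1.37 CPM. All 8 ACY957 libraries lay above the vehicle median and 7 above the highest vehicle library. In reads, this was 51 to 300 per ACY957 library and 12 to 153 per vehicle library. The difference was 2.88 on the log2 scale with an SE of 0.38 (adjusted p = 4.82e-06, edgeR).

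The call held with any 1 of the 19 libraries left out, but not for every choice of vehicles. Leaving out any 1 of the 19 libraries gave log2 fold changes of 2.78 to 3.67, and the highest adjusted p was 3.10e-05 (edgeR). Leaving out ACY957 replicate 3 and vehicle replicate 2 together gave 3.82 (adjusted p = 1.01e-12, edgeR). These 2 libraries were picked by their Nmu levels, so a larger value was built in and nothing is drawn from it. A fit without the mutant-label vehicles from mouse 48 on kept 4 vehicles of this group, fewer than the planned 8, at 0.629, 6.01, 0.521 and 1.37 CPM. The log2 fold change was then 1.97 and no longer passed (adjusted p = 0.99993, edgeR). With vehicle replicate 2 also left out, it was 3.33 and passed again (adjusted p = 0.0126, edgeR). That vehicle was left out for its high Nmu, so this rise was built in as well. In bulk tissue, more cells that express a gene and more RNA per cell cannot be told apart, here and in the results that follow.

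**Figure D1:**
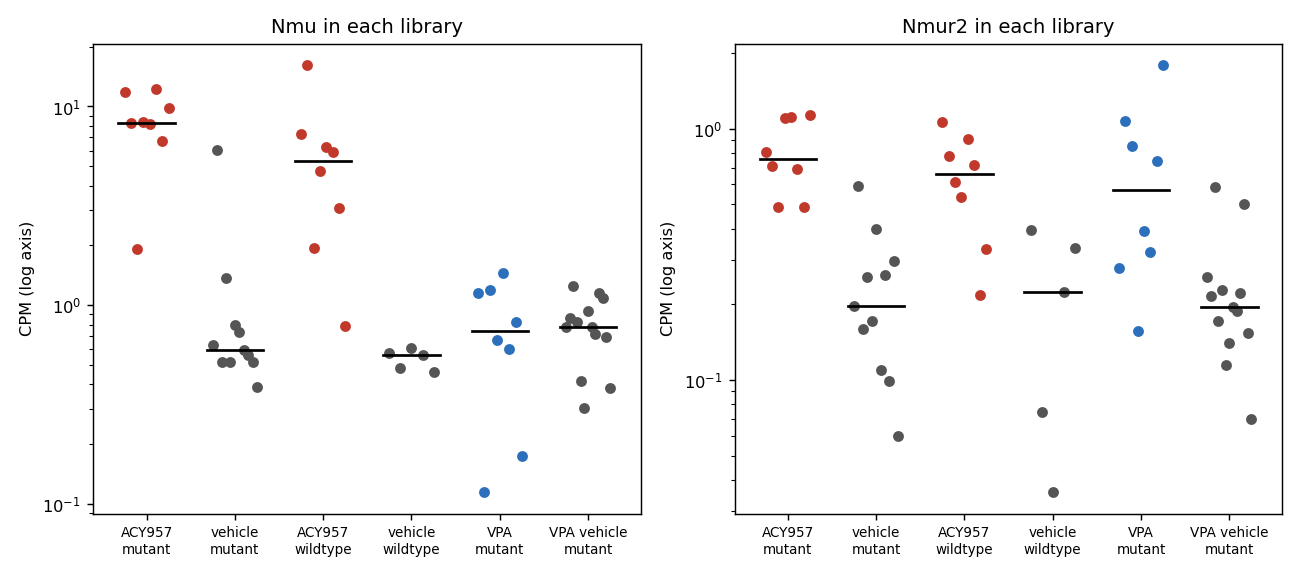
Nmu (left) and Nmur2 (right) in each library, in CPM on a log axis, for ACY957 and vehicle under the mutant label, ACY957 and vehicle under the wildtype label, and VPA and its vehicle under the mutant label; points are libraries and bars are medians. In Nmu, 7 of the 8 mutant-label ACY957 libraries lie above the highest vehicle library (6.01 CPM), and in Nmur2, 6 of the 8 lie above the highest (0.589 CPM).

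Nmur2, the receptor of neuromedin U in the brain, did not pass at 1.79 on the log2 scale with an SE of 0.38 (adjusted p = 0.099, edgeR). It was at 0.810, 0.707, 0.490, 1.11, 1.11, 0.694, 0.487 and 1.13 CPM in ACY957 libraries. Vehicle libraries ran from 0.0600 CPM through a median of 0.197 CPM to 0.589 CPM. All 8 ACY957 libraries lay above the vehicle median and 6 above the highest vehicle library, which was again vehicle replicate 2. These levels rest on 12 to 33 reads per ACY957 library and 2 to 15 per vehicle library. Nmur2 passed in DESeq2 (adjusted p = 0.0332) and in limma voom (adjusted p = 0.0317), and over all alternatives its adjusted p ran from 0.000722 to 0.99993. Nmur1 was too low to be tested, with 42 reads in all ACY957 libraries together and 50 in all vehicle libraries. Nms encodes neuromedin S, the related peptide that acts on the same receptors. It was at 1.33 ± 0.40 CPM (SD, n = 8) with ACY957 and 1.53 ± 0.75 CPM (SD, n = 11) with vehicle, and its log2 fold change was -0.20 (SE 0.31).

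The genes around Nmu did not pass. Of 22 annotated genes with a start within 500 kb, 9 were in the count table and 8 were tested. Their log2 fold changes ran from -0.20 (Kdr, the endothelial VEGF receptor) to 0.07 (Tmem165). Srd5a3, which makes dolichol for glycosylation, had the smallest p (0.0153, unadjusted) at -0.14 (SE 0.05). Clock, the nearest tested gene, was at 0.02 (SE 0.09). The non-coding gene 4930432L08Rik overlaps Nmu over 8391 bases on the opposite strand. It is not in the count table, and the strand setting of the counting is not given in the sources used here, so reads of the pair cannot be told apart.

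**Figure D2:**
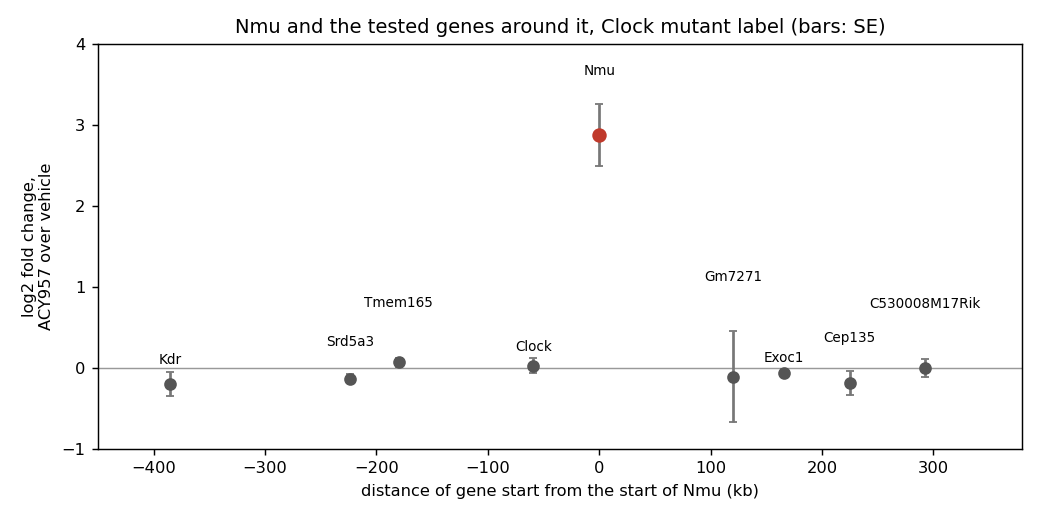
Log2 fold change of ACY957 over vehicle under the mutant label for Nmu and the 8 tested genes with a start within 500 kb, against the distance of each gene's start from that of Nmu in kb; bars are SE. Nmu stands at 2.88, and the other genes lie between -0.20 and 0.07.

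The effect on Nmu was also tested under the wildtype label, where the mice were other animals with their own vehicle. There Nmu was at 7.25, 16.1, 1.95, 4.74, 6.27, 5.88, 3.10 and 0.786 CPM in ACY957 libraries, and at 0.572, 0.485, 0.607, 0.561 and 0.461 CPM in vehicle libraries. The lowest ACY957 library lay above the highest vehicle library by a narrow margin. It was replicate 8, with 19 reads (0.786 CPM), against 17 reads (0.607 CPM) in vehicle replicate 3. How many of all genes separated in this way under the wildtype label was not counted. The clock score of ACY957 replicate 8 was 4.28, in the lower set, which goes against its wildtype label. The log2 fold change of Nmu was 3.42 with an SE of 0.56 (adjusted p = 0.00142, edgeR), and Nmu was 1 of 15634 genes that passed (0.0064%). It did not pass in limma voom, nor when only the compared groups were fitted. The difference between the labels in the effect of ACY957 on Nmu was -0.54 (SE 0.66, unadjusted p = 0.421, edgeR), mutant minus wildtype. No gene passed this test of the difference in edgeR, DESeq2 or limma voom, and 287 (1.84%) stood at an unadjusted p under 0.05 in edgeR. Nmur2 had a log2 fold change of 1.63 (SE 0.51) under the wildtype label and did not pass.

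VPA, a mood stabiliser that also inhibits histone deacetylases, served as the second drug. In mutant-label mice Nmu was at 0.773 ± 0.48 CPM (SD, n = 8) with VPA and 0.782 ± 0.29 CPM (SD, n = 13) with its vehicle. VPA replicates 2 and 8 stood apart: Th was at 44.3 and 26.3 CPM in them, against 304.0 to 1432 CPM in the other VPA libraries. They also had the lowest Nmu of their group, at 0.114 and 0.175 CPM. The effect of ACY957 minus that of VPA was 2.90 for Nmu (SE 0.59, adjusted p = 0.0473, edgeR), and 2 genes passed this test (0.0128%). The other was Pmch, the precursor of melanin-concentrating hormone from the lateral hypothalamus, at -4.21 (SE 0.74, adjusted p = 0.00675, edgeR). Pmch was at 6.57 ± 2.20 CPM (SD, n = 8) with ACY957 and 6.49 ± 2.50 CPM (SD, n = 11) with vehicle, so this difference came with a log2 fold change of 0.01 for ACY957 and 4.23 for VPA. The VPA value was carried by replicates 2 and 8, where Pmch was at 349.1 and 542.0 CPM, with 98.8 CPM in replicate 7 and 4.48 to 30.3 CPM in the other 5 VPA libraries, against 3.28 to 13.1 CPM in VPA vehicle libraries. Without the 4 libraries of the series with Th under 8 on the log2 CPM scale, which include VPA replicates 2 and 8, ACY957 minus VPA was 2.48 (SE 0.60) for Nmu and -1.97 (SE 0.54) for Pmch, and neither passed. Both calls depended on the method: neither gene passed in limma voom, with only the compared groups fitted, or without VPA replicate 8, and Nmu lost the call with most single libraries left out. For Nmur2 the log2 fold change was 1.79 for ACY957 and 1.58 (SE 0.37) for VPA, and the difference of 0.21 (SE 0.54) did not pass. VPA replicates 8 and 2 were also the highest of their group in Nmur2, at 1.79 and 1.07 CPM, with the others between 0.157 and 0.855 CPM. Without the libraries low in Th the value for VPA was 1.15 (SE 0.38), and the difference 0.64 (SE 0.52).

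The class I deacetylase genes and the mutated gene did not differ past the threshold. Clock was at 74.9 ± 6.18 CPM (SD, n = 8) with ACY957 and 73.7 ± 14.5 CPM (SD, n = 11) with vehicle, a log2 fold change of 0.02 (SE 0.09). Vehicle replicate 11 stood apart at 34.3 CPM, with the other vehicle libraries between 68.7 and 89.5 CPM. The log2 fold changes of the class I deacetylases were -0.01 (SE 0.04) for Hdac1, 0.09 (SE 0.06) for Hdac2, 0.00 (SE 0.05) for Hdac3 and -0.06 (SE 0.05) for Hdac8. None of these 5 genes passed, and the signs of Clock, Hdac1 and Hdac3 turned with the libraries left out. Of 32 class I deacetylases and corepressor subunits, 15 were higher and 17 lower, with a median of -0.004, and 0 passed. The smallest p among them was that of Rbbp7, a histone chaperone of the SIN3 and NuRD complexes, at 0.10 (SE 0.04, unadjusted p = 0.0124). Sap30, a SIN3 subunit, was at 0.22 (SE 0.12), and Ncor1, the scaffold of the HDAC3 complex, at 0.11 (SE 0.07).

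Genes known to respond to deacetylase inhibitors lay on both sides of 0. Of 20 such genes, 9 were higher and 11 lower, with a median of -0.023, and 0 passed. At an unadjusted p under 0.05 stood 3 higher and 1 lower, where 2.97% of all genes were higher and 3.34% lower at that p. Cdkn1a, the cell-cycle inhibitor p21 and a standard target of these drugs, was at 1.17 (SE 0.36, unadjusted p = 0.00171). Its value was 0.75 without ACY957 replicate 7 and 0.26 without replicates 6 to 8. H1f0, the linker histone H1.0, was at 126.6 ± 15.9 CPM (SD, n = 8) with ACY957 and 108.6 ± 5.16 CPM (SD, n = 11) with vehicle, a log2 fold change of 0.22 (SE 0.08). Mt2, a metallothionein, was at 0.28 (SE 0.12), and Clu, the chaperone clusterin, at -0.13 (SE 0.06). Among 16 acetyltransferases and BET readers 0 passed, and Hat1, which acetylates newly made histone H4, was at 0.17 (SE 0.06, unadjusted p = 0.00366).

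Of the 10 genes with the smallest p in the higher direction, 9 did not pass, Nmur2 among them. Trh, the precursor of thyrotropin-releasing hormone, had a log2 fold change of 3.14 (SE 0.68). It was at 77.5 CPM in ACY957 replicate 3 and between 0.636 and 2.98 CPM in the other ACY957 libraries, against 0.259 to 3.30 CPM in vehicle libraries. Without that library its log2 fold change was -0.05. Kl, the choroid plexus gene klotho, and Tmem27, collectrin, were highest in the same library, at 28.5 and 2.26 CPM, and their log2 fold changes of 1.45 (Kl) and 1.36 (Tmem27) were 0.38 and 0.72 when it was left out.

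The other genes of this set were less tied to that library. Spag5, which encodes a protein of the mitotic spindle, was at 8.22 ± 1.16 CPM (SD, n = 8) with ACY957 and 5.82 ± 1.37 CPM (SD, n = 11) with vehicle (0.50 on the log2 scale, SE 0.12; adjusted p = 0.195, edgeR). All 8 ACY957 libraries were above the vehicle median, and vehicle replicate 2, at 8.96 CPM, was the highest vehicle library. Fcna, the innate immune lectin ficolin A, was at 3.11 ± 0.96 CPM (SD, n = 8) with ACY957 and 1.42 ± 0.69 CPM (SD, n = 11) with vehicle, a log2 fold change of 1.13 (SE 0.29), and passed in limma voom. Ikbip was at 0.21 (SE 0.05). Ctgf, a matricellular protein, was at 0.93 (SE 0.23), and Ccl6, a chemokine of myeloid cells, at 1.15 (SE 0.27). Ctgf was highest in ACY957 replicates 6 to 8, at 36.9, 23.8 and 24.7 CPM, against 5.82 to 15.95 CPM in vehicle libraries. Ccl6 was highest in ACY957 replicates 6 and 8, at 6.98 and 4.33 CPM, against 0.684 to 1.83 CPM in vehicle libraries. The value of Ccl6 was 0.75 without replicate 6 and 0.35 without replicates 6 to 8, and that of Ctgf was 0.49 without replicates 6 to 8.

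In the lower direction Gamt had the smallest p. It encodes the enzyme of the last step of creatine synthesis and was at 14.7 ± 2.03 CPM (SD, n = 8) with ACY957 and 20.8 ± 3.38 CPM (SD, n = 11) with vehicle, which put the log2 fold change at -0.50 with an SE of 0.11 (adjusted p = 0.112, edgeR). ACY957 libraries ran from 11.96 to 17.1 CPM and vehicle libraries from 15.1 to 27.4 CPM, so all 8 lay below the vehicle median and 5 below the lowest vehicle library. Gamt passed in DESeq2 (adjusted p = 0.0332) and without the libraries whose clock genes go against their label (-0.63, adjusted p = 0.00843, edgeR), and over all alternatives its adjusted p ran from 0.00171 to 0.99998. Rnf122, a membrane ubiquitin ligase, was at -0.59 (SE 0.15), and Pigs, a subunit of the enzyme that attaches GPI anchors, at -0.19 (SE 0.05). Both also passed without the clock-discordant libraries, Rnf122 at -0.94 and Pigs at -0.26. Without ACY957 replicates 6 to 8, Rnf122 was at -0.36 (SE 0.16) and did not pass. Pigs was at -0.23 (SE 0.05) under the wildtype label, where it did not pass.

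Adamts4, an aggrecan-cleaving protease, was at 25.9 ± 5.10 CPM (SD, n = 8) with ACY957 and 38.4 ± 6.82 CPM (SD, n = 11) with vehicle, a log2 fold change of -0.57 (SE 0.15), with 6 of 8 ACY957 libraries below the lowest vehicle library. Naa60, an N-terminal acetyltransferase, likewise had 6 of 8 below the lowest vehicle library, at a smaller fold (-0.13, SE 0.03). Emc1, a subunit of the ER membrane complex, was at -0.17 (SE 0.04), and Kcna6, a voltage-gated potassium channel, at -0.17 (SE 0.04). Upp2, a uridine phosphorylase, was at -0.35 (SE 0.09), and Podxl, a sialomucin of vessels and neurons, at -0.36 (SE 0.09). Rmrp, the RNA of the RNase MRP complex, was at -2.17 (SE 0.55). Its difference rested on vehicle replicates 4 and 8, at 9.62 and 4.55 CPM: the other vehicle libraries lay between 0.111 and 0.810 CPM and the ACY957 libraries between 0.0670 and 0.690 CPM.

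**Figure D3:**
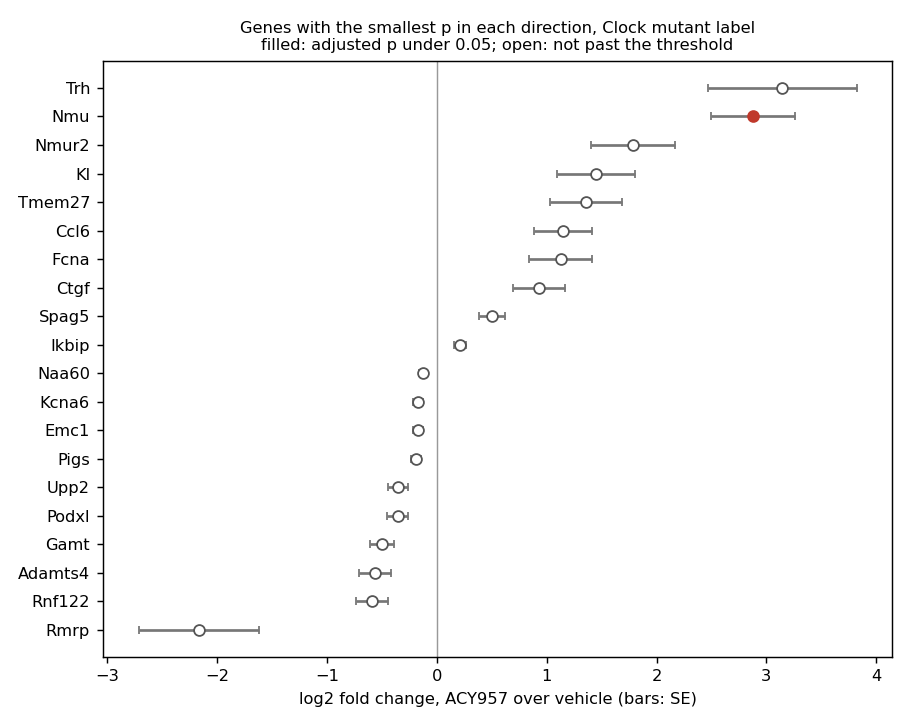
Log2 fold change of ACY957 over vehicle under the mutant label, with SE, for 10 genes per direction, those with the lowest p; the filled point passed the threshold and open points did not. Nmu, at 2.88, is the filled point, and Trh, at 3.14, has the widest bar.

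The list of glucocorticoid-responsive genes lay to one side of 0. All 15 tested members had a log2 fold change above 0, where 52.6% of all genes did, with a median of 0.47 against 0.006 over all genes. None of the 15 passed, and 7 stood at an unadjusted p under 0.05, where 2.97% of all genes did so in this direction. Fkbp5, a co-chaperone of the glucocorticoid receptor and one of its standard targets, was at 26.4 ± 10.1 CPM (SD, n = 8) with ACY957 and 17.97 ± 1.49 CPM (SD, n = 11) with vehicle (0.55, SE 0.15, unadjusted p = 0.000432). Sgk1, a kinase induced by glucocorticoids, was at 217.9 ± 96.0 CPM (SD, n = 8) with ACY957 and 101.3 ± 38.6 CPM (SD, n = 11) with vehicle (1.10, SE 0.41). Arrdc2, an arrestin-domain gene, was at 0.69 (SE 0.23), and Cdkn1a, also on this list, at 1.17 (SE 0.36).

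These values were largest in a few mice. In the order of their replicate numbers, Fkbp5 was at 16.1, 21.9, 21.8, 21.9, 20.1, 29.2, 47.7 and 32.8 CPM in ACY957 libraries, against 15.4 to 20.04 CPM in vehicle libraries with a median of 18.5 CPM. Replicates 6, 7 and 8 were the highest, and replicate 1 lay inside the vehicle range. Cdkn1a was at 9.84, 21.1, 14.6, 17.1, 16.4, 44.7, 82.0 and 32.3 CPM in ACY957 libraries, against 9.02 to 17.6 CPM in vehicle libraries with a median of 12.6 CPM. The mean log2 CPM of the list was 5.47, 5.59 and 5.32 in ACY957 replicates 6, 7 and 8, and between 4.54 and 4.93 in the other ACY957 libraries, against 4.24 to 4.83 in vehicle libraries. By this mean, all 8 ACY957 libraries lay above the vehicle median of 4.52, the lowest at 4.54, and 4 above the highest vehicle library. Without ACY957 replicates 6 to 8 all 15 members still lay above 0, and the median was 0.14. These 3 libraries were picked as the highest in this list, so a lower median was built in. Under the wildtype label 14 of 15 lay above 0 with a median of 0.21, where 49.2% of all genes lay above 0, and for VPA under the mutant label 13 of 15 with a median of 0.23, where 49.6% did. None passed in either comparison, where 0.0064% and 0.0576% of all genes did.

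Myelin genes lay to the other side. All 14 tested members had a log2 fold change below 0, where 47.4% of all genes did, with a median of -0.23, and 0 passed. At an unadjusted p under 0.05 stood 6 of them, where 3.34% of all genes did so in this direction. Mbp, myelin basic protein, was at 5246 ± 1158 CPM (SD, n = 8) with ACY957 and 6343 ± 773.9 CPM (SD, n = 11) with vehicle (-0.27, SE 0.10, unadjusted p = 0.00881). Cldn11, the tight-junction claudin of myelin, was at -0.25 (SE 0.10), and Cnp, an enzyme of myelin membranes, at -0.21 (SE 0.09). The summed level of the 14 genes ran from 10948 to 18332 CPM in ACY957 libraries, median 13744 CPM, and from 13669 to 19433 CPM in vehicle libraries, median 16315 CPM. The mean log2 CPM of the list ran from 8.30 to 8.89 with ACY957 and from 8.55 to 9.07 with vehicle, and 4 of 8 ACY957 libraries, replicates 2, 3, 6 and 8, lay below the lowest vehicle library. For this list the median was -0.06 under the wildtype label, with 12 of 14 below 0 (50.8% of all genes), and -0.23 for VPA under the mutant label, with 14 of 14 below 0 (50.4%). Mbp and Cldn11 passed when the vehicles of both drugs were pooled (adjusted p = 0.0317 each, edgeR). Mbp ran from 5980 to 8649 CPM in the mutant-label VPA vehicles added there, against 5157 to 7285 CPM in ACY957 vehicles. Without ACY957 replicates 6 to 8, Mbp was at -0.16 (SE 0.11) and Cldn11 at -0.26 (SE 0.12), and neither passed. Whether the share of white matter in the punches differed was not tested.

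**Figure D4:**
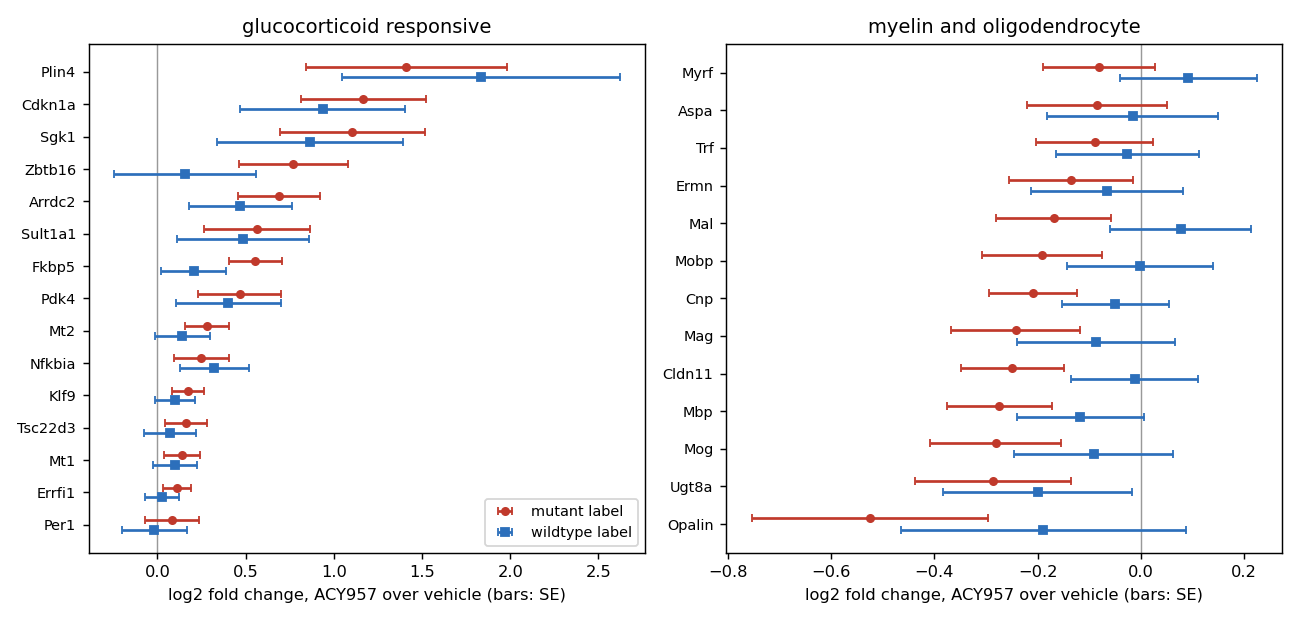
Log2 fold change of ACY957 over vehicle, with SE, for the 15 glucocorticoid-responsive genes (left) and 13 of the 14 myelin genes (right), under the mutant label (circles) and the wildtype label (squares). Under the mutant label all 15 genes on the left lie above 0 and all 13 on the right below 0, and none passed the threshold.

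Among stress and metabolic genes the smallest p was that of Atf4, the transcription factor of the integrated stress response. It was at 128.6 ± 17.4 CPM (SD, n = 8) with ACY957 and 104.4 ± 12.6 CPM (SD, n = 11) with vehicle, a log2 difference of 0.30 with an SE of 0.08 (adjusted p = 0.292, edgeR), and with all 8 ACY957 libraries above the vehicle median and 4 above the highest. Of the 15 genes of that response, 8 were higher and 7 lower, with a median of 0.017. Phgdh, the first enzyme of serine synthesis, was at 0.15 (SE 0.07), and Mthfd2, a mitochondrial folate enzyme, at 0.17 (SE 0.08). Of 25 genes of cholesterol and fatty acid synthesis, 22 were lower, where 47.4% of all genes were, and 3 higher. Their median was -0.10, and 0 passed. The synthesis enzymes Dhcr7 (-0.22, SE 0.09), Mvk (-0.16, SE 0.07) and Nsdhl (-0.16, SE 0.07) each had all 8 ACY957 libraries below the vehicle median. Under the wildtype label 18 of the 25 genes were lower (50.8% of all genes), with a median of -0.14. For VPA under the mutant label 23 were lower (50.4% of all genes), with a median of -0.13.

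Clock genes were set side by side because the allele acts on them. Of 21 core clock genes, 9 were higher and 12 lower, with a median of -0.03, and 0 passed. Nr1d1, the repressor REV-ERBα, was at 27.1 ± 5.72 CPM (SD, n = 8) with ACY957 and 34.6 ± 8.81 CPM (SD, n = 11) with vehicle (-0.35, SE 0.15). Wee1, a clock-driven cell-cycle kinase, was at -0.25 (SE 0.11). Dbp, a clock-driven bZIP factor, was at -0.47 (SE 0.24). Without the libraries whose clock genes go against their label, which include 2 of 8 ACY957 and 3 of 11 vehicle libraries, Nr1d1 was at -0.30 (SE 0.12), Wee1 at -0.11 (SE 0.11) and Dbp at -0.37 (SE 0.15). The score that picked these libraries includes Nr1d1 and Dbp. The refitted values of Nr1d1, Dbp and the score, and their SE, therefore rest on libraries chosen by the same genes. Of the 8 genes behind the clock score, all 8 were lower, where 47.4% of all genes were, with a median of -0.15. In the score itself, 5 of 8 ACY957 libraries lay below the vehicle median and 3 above it. The median log2 fold change ran from -0.29 to -0.02 as single libraries were left out. It was -0.02 without the clock-discordant libraries and 0.17 without the mutant-label vehicles from mouse 48 on.

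Dopamine neuron markers gave no difference past the threshold. Of 22 markers, 15 were higher and 7 lower, with a median of 0.04, and 0 stood at an unadjusted p under 0.05. Th was at 1189 ± 330.6 CPM (SD, n = 8) with ACY957 and 1101 ± 293.3 CPM (SD, n = 11) with vehicle, a log2 fold change of 0.11 (SE 0.38). The summed level of the markers ran from 5476 to 11153 CPM with ACY957 and from 5634 to 10760 CPM with vehicle, so libraries of 1 group differed by more than the groups. The median of the list changed sign under several alternatives, from -0.18 without the libraries high in Ttr to 0.20 with the vehicles of both drugs pooled. In the other comparisons the list went the other way. All 22 were lower under the wildtype label (50.8% of all genes), with a median of -0.22. For VPA under the mutant label, where replicates 2 and 8 were low in Th, 21 were lower (50.4%), with a median of -0.30.

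Markers of the choroid plexus were uneven between libraries. Ttr, which encodes transthyretin, one of its most abundant transcripts, was at 430.0 CPM in ACY957 replicate 3 and between 1.15 and 32.9 CPM in the other ACY957 libraries, against 0.0746 to 43.2 CPM in vehicle libraries. Of 12 ependymal and choroid plexus genes, 7 were higher and 5 lower, with a median of 0.13, and 0 passed. At an unadjusted p under 0.05 stood 5 higher and 0 lower, where 2.97% of all genes were higher at that p. Under the wildtype label 9 of the 12 lay above 0, where 49.2% of all genes did. For VPA under the mutant label 9 lay above 0, where 49.6% of all genes did. In mean log2 CPM of the list, 7 ACY957 libraries lay above the vehicle median of 0.425 and 1 below it. The summed level of the 12 genes ran from 33.3 to 514.5 CPM with ACY957, median 40.99 CPM. With vehicle it ran from 30.1 to 84.2 CPM, median 35.99 CPM. Without the 5 libraries with Ttr above 20 CPM (3 ACY957, 2 vehicle), the log2 fold change was -0.58 for Ttr, against 2.80 with all libraries. Kcne2, a potassium channel subunit, was then at -0.39, against 1.18 with all libraries, and Aqp1, a water channel, at -0.06, against 0.89. Nmu was the gene that passed there too, at 2.97 (SE 0.44, adjusted p = 0.000114, edgeR).

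**Figure D5:**
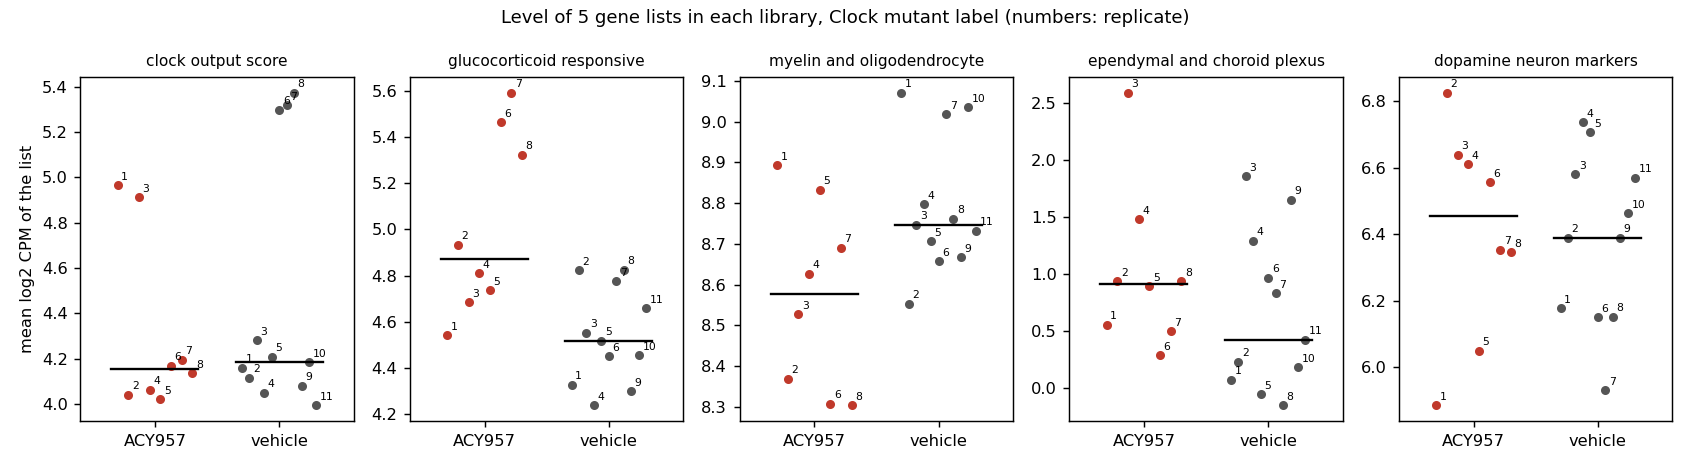
Mean log2 CPM of 5 gene lists in each mutant-label library, ACY957 on the left and vehicle on the right of each panel; numbers are replicates and bars are medians. ACY957 replicates 1 and 3 and vehicle replicates 6 to 8 stand apart in the clock score, ACY957 replicates 6 to 8 (5.32 to 5.59) in the glucocorticoid list and ACY957 replicate 3 (2.59) in the choroid plexus list.

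Other lists gave 0 genes past the threshold. Igfbp5, a secreted binding protein of insulin-like growth factors, was at 128.5 ± 27.4 CPM (SD, n = 8) with ACY957 and 162.8 ± 14.1 CPM (SD, n = 11) with vehicle (-0.34, SE 0.11), with 5 of 8 ACY957 libraries below the lowest vehicle library. Igfbp7, a related protein of blood vessels, was at -0.20 (SE 0.09). Of 14 endothelial and mural markers 12 were lower, where 47.4% of all genes were, with a median of -0.10. The pericyte channel gene Kcnj8 was at -0.29 (SE 0.11) and the drug-efflux transporter Abcb1a at -0.18 (SE 0.08). This list went the other way under the wildtype label, with 5 of 14 lower (50.8% of all genes) and a median of 0.06. For VPA under the mutant label 9 were lower (50.4%), with a median of -0.05. Of 11 tested genes of DNA replication and mitosis 9 were lower, where 47.4% of all genes were, with a median of -0.14. The helicase subunit Mcm3 was at -0.31 (SE 0.12). The topoisomerase Top2a was at -1.30 (SE 0.55), from levels of 0.124 CPM with ACY957 and 0.322 CPM with vehicle. Under the wildtype label 10 of the 11 were lower (50.8% of all genes), and for VPA under the mutant label 9 (50.4%). Among neurotrophic genes Gdnf, a survival factor of dopamine neurons, was at -0.91 (SE 0.38) from levels of 0.132 CPM with ACY957 and 0.249 CPM with vehicle, and Ngfr, the low-affinity neurotrophin receptor, at -0.43 (SE 0.17). Rasd2, the striatal G protein Rhes, was at -0.31 (SE 0.10). Lists of microglia (13 genes, median -0.007), astrocytes (12 genes, median 0.06), synaptic vesicles (19 genes, median 0.02) and the respiratory chain (21 genes, median 0.03) lay near the median of all genes.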

How the data were processed

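The authors deposited 1 table of raw counts, not normalized, with 24421 gene symbols and 64 mouse libraries; 1 library is 1 mouse. Per the design text, stranded poly(A) libraries were read at 75 bases, checked with FastQC 0.11.3, aligned with TopHat2 2.0.9 to mm10 and counted with HTSeq 0.6.1. The submitters' processing notes name Trimmomatic, HISAT2, HTSeq and mm10 instead, so the aligner differs between sources, and the annotation and strand setting are not given in the sources used here.

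Counts were tested with edgeR 4.0.16 (R 4.3.3): filterByExpr kept 15634 genes, TMM scaled the libraries, and 1 quasi-likelihood model of 8 groups and 64 libraries was fitted, with Benjamini-Hochberg adjustment over all tested genes and a threshold of 0.05. SE was taken as the absolute log2 fold change over the root of F. CPM use the TMM-scaled library sizes. The script was tested on simulated counts. Replicate libraries differed by more than counting noise in all 83 pairs compared within groups (chi-square per degree of freedom 9.38 to 124), so none was counted as a repeat. Alternatives were DESeq2 1.42.0, limma voom 3.58.1, sva 3.50.0 (5 surrogate variables), other filters and scaling, and fits with libraries left out.

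Named genes were Clock and the class I deacetylases, the 10 with the smallest p in each direction (predicted genes skipped), members with the smallest p of 42 gene lists, and genes that passed another comparison. Neighbours of Nmu, Nms, and genes such as Th, Otx2, Cck and Pmch, were named for their relation to these. The libraries, comparisons and lists were chosen with earlier results of these data known. Of the symbols, 23376 matched GENCODE M21, and promoters came from RefSeq. Values of some list members are not reported here. Few reads limit the precision of low genes such as Nmur2.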

Additional observations from a re-analysis of the deposited data

Results flagged for a closer look

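In 71 checks of single genes within groups of 5 or 8 libraries, 7 libraries stood far from the others of their group by Dixon's criterion. Of the 6 within mutant-label ACY957 mice, 5 were replicate 3: Ttr at 430.0 CPM (next 32.9 CPM), Trh at 77.5 CPM (next 2.98 CPM), Kl at 28.5 CPM (next 4.02 CPM), Kcne2 at 3.05 CPM (next 0.938 CPM) and Tmem27 at 2.26 CPM (next 0.737 CPM). The same library had the lowest Nmu of its group, 1.92 CPM. The sixth was Hdac2 at 114.0 CPM in replicate 5, with the next library at 94.9 CPM. Among wildtype-label ACY957 mice, replicate 2 stood apart in Nmu, at 16.1 CPM against 7.25 CPM in the next. By chance about 1 in 20 groups would be flagged, for genes chosen beforehand and independent, normally distributed values. The genes here were chosen in part for their p. The fold changes of Trh, Kl and Tmem27 rested largely on mutant-label ACY957 replicate 3, so that rate does not apply to them. The vehicle group of 11 libraries was not checked, because the critical values used covered only smaller groups. Libraries that stand apart there were therefore not screened for. In mean log2 CPM, vehicle replicate 11 was the lowest of its group in core clock genes (3.91). It was the highest in the integrated stress response (4.97) and in genes known to respond to deacetylase inhibitors (5.86).

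The effects of the drugs differed by a test of the difference itself for 2 genes under the mutant label. ACY957 minus VPA was 2.90 for Nmu (adjusted p = 0.0473, edgeR) and -4.21 for Pmch (adjusted p = 0.00675, edgeR). Neither passed in limma voom, with the compared groups alone, with surrogate variables, without VPA replicate 8 or without the libraries low in Th, where the values were 2.48 for Nmu and -1.97 for Pmch. VPA replicates 2 and 8, with Pmch at 349.1 and 542.0 CPM, had Th at 44.3 and 26.3 CPM. All 8 ACY957 libraries lay above the vehicle median in Nmu, and 4 of 8 in Pmch.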

How the results depend on the processing

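No paired analysis was possible because the labels give each mouse its own number and no number shared between groups. Nmu passed under each alternative except without the mutant-label vehicles from mouse 48 on. The count of genes changed by ACY957 under the mutant label (1) was 4 in DESeq2, 3 in limma voom, 2 with the compared groups alone, 4 with surrogate variables, 0 without the vehicles from mouse 48 (16 libraries of both drugs), 3 with vehicle replicate 2 also left out, 119 with the vehicles of both drugs pooled (33 higher, 86 lower), 8 without the 13 clock-discordant libraries, 2 without 4 libraries low in Th, 2 with Th as covariate, 7 without the 2 libraries with Nmu unlike their group and 4 without ACY957 replicates 6 to 8. It was 1 without a filter, with RLE scaling and without the libraries high in Ttr. Leaving out single libraries gave 1 to 4: vehicle replicate 2 gave 4, and ACY957 replicates 2 and 5 gave 3 each. Settings that leave out libraries by Nmu, Ttr or the glucocorticoid list, and those applied to lists, were chosen after seeing the data.

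Under the wildtype label the count of 1 was 0 in limma voom and 0 with the compared groups alone, and 1 with any single library left out. The count differing between labels (0) was 1 with surrogate variables (Dynlt1b), and 0 to 0 with single libraries left out. The count differing between the drugs (2) was 4 in DESeq2, 1 without a filter, 681 with vehicles pooled, 0 in limma voom, with the compared groups alone, with surrogate variables, without the vehicles from mouse 48, without the clock-discordant libraries, without 4 low-Th libraries and with a Th covariate, and 0 to 4 with single libraries left out; VPA replicate 8 gave 0. The cause was not tested.

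Signs turned for genes that did not pass. With surrogate variables Hdac3 was -0.03 and Th -0.069. Without the vehicles from mouse 48, Clock was -0.057, Hdac1 0.012, Dbp 0.035, Ngfr 0.031, Th -0.007 and Nms 0.06. With vehicle replicate 2 also left out, Clock was -0.04, Hdac1 0.035, Ngfr 0.154 and Th -0.048. With vehicles pooled Hdac1 was 0.009 and Nms 0.104. Without the clock-discordant libraries Cck was -0.026 and Nms 0.256. With Th as covariate Hdac3 was -0.003 and Th 0. Without the 2 libraries with Nmu unlike their group, Hdac1 was 0.002, Trh -0.06 and Ttr -0.009. Without ACY957 replicates 6 to 8, Hdac1 was 0.007 and Hdac3 -0.023. Without the libraries high in Ttr, Hdac1 was 0.048, Hdac3 -0.014, Ttr -0.58, Kcne2 -0.391, Aqp1 -0.063, Th -0.145, and the dopamine neuron markers Otx2 -0.008 and Cck -0.012. Over single libraries left out, values ran from -0.052 to 0.055 for Clock, -0.028 to 0.01 for Hdac1, -0.024 to 0.028 for Hdac3 and -0.052 to 3.41 for Trh. Low counts limit Nmur2, Top2a and Gdnf.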
